A study of Arabidopsis thaliana with 12 samples.

Results

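The genes described here encode the subunits of the 26S proteasome of Arabidopsis thaliana. They are 54 of the 33323 nuclear genes counted in whole-gene windows, and were chosen by a list of loci that uses no values of these libraries but was drawn up with earlier results of these data known. The list holds 24 genes of the core particle, 13 of the alpha type and 11 of the beta type, and 30 genes of the regulatory particle, 11 RPT and 19 RPN. In all, 44 genes form 22 paralog pairs and 10 have no paralog on the list. RefSeq gives 15 of the genes no subunit name, and these are called by their locus or RefSeq symbol. Occupancy by RNA polymerase II (RNAPII) was read out by ChIP-seq, the sequencing of immunoprecipitated chromatin, in 12 libraries from Columbia seedlings harvested 10 days after sowing. All plants, mock plants included, carried the insertion tfIIs-1 (SALK_056755) in the gene for TFIIS, an RNAPII elongation factor (AT2G38560). The S2P induced group was given 2 mM estradiol for 24 h to express GFP-TFIIS and precipitated with an antibody against RNAPII phosphorylated on serine 2 of its C-terminal domain. Its S2P mock group was given ethanol instead. The S5P induced group was given the same estradiol treatment to express GFP-TFIISmut and precipitated with an antibody against the serine 5 form, and its S5P mock group was given ethanol. Each group had 3 libraries. The series title names only the mutated form, so which form was induced in the S2P libraries is taken from the sample labels. Whether replicates were separate cultures is not in the labels, so a p-value reflects only the spread between these libraries, which may be technical. Estradiol and the induced protein cannot be told apart in this design, nor can the antibody and the form of TFIIS that was induced. The sources used here do not give the promoter behind the estradiol system or the number of transgenic lines.

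The proteasome degrades proteins tagged with ubiquitin. In its core particle, rings of alpha subunits gate the entry and rings of beta subunits carry the peptidase sites. The regulatory particle caps the core: its RPT subunits are ATPases that unfold substrates and open the gate, and its RPN subunits include scaffolds, ubiquitin receptors and lid subunits. Plants, like yeast and animals, adjust transcription of the subunit genes together when proteasome capacity falls short, and in Arabidopsis many subunits are encoded by duplicated genes. Serine 2 phosphorylation is carried mostly by elongating RNAPII and serine 5 phosphorylation mostly by RNAPII near the transcription start site (TSS).

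Libraries held 115868 to 2537034 reads in nuclear genes and 490 to 7864 reads on the 54 proteasome genes. Values below are in CPM, a gene's reads over all reads in nuclear genes, times 1000000. A single read was worth 0.394 CPM in the deepest library, S2P mock replicate 3, and 8.63 CPM in the shallowest, the library labelled S5P induced replicate 2, where the median proteasome gene had 4 reads. The share of counted alignments outside genes was 38.6% in the library labelled S5P induced replicate 2, 33.4% in the library labelled S2P induced replicate 3 and 28.2% in S2P induced replicate 1, against 16.1% to 22.2% in the other 3 induced libraries and 22.3% to 29.4% in the mock libraries. TFIIS had 93.9, 125 and 61.8 CPM in the S2P induced libraries, against 18.8, 67.7 and 57.9 CPM in the S2P mock libraries. It had 156, 43.1 and 179 CPM in the S5P induced libraries, against 58.9, 46.9 and 47.8 CPM in the S5P mock libraries. The groups overlapped for both antibodies, and TFIIS missed the threshold in edgeR for S2P (log2 fold change ± SE 1.09 ± 0.42, adjusted p = 0.573) and for S5P (1.52 ± 0.49, adjusted p = 0.58). TFIIS had 5 reads in the library labelled S5P induced replicate 2, below all 3 mock libraries (exact 95% Poisson interval 14.01 to 100.7 CPM, for counting error only), and 13 reads in the library labelled S2P induced replicate 3, within the mock range (32.9 to 105.6 CPM). The level of the induced gene therefore does not bear out the label of the first of these libraries and does not set the second apart from mock, and both are called by their labels below. Without the first of them, TFIIS passed for S5P (1.82, adjusted p = 0.00721), and with all libraries it passed for S5P in DESeq2 in the gene body (adjusted p = 0.0296). Whether reads of the transgene align to the TFIIS locus was not stated in the sources used here. Across the antibodies, deviations of induced libraries from their group means, taken over 23364 genes, which are not independent replicates, correlated negatively at the same replicate number (r = -0.191, -0.491 and -0.342). They correlated positively between S5P induced 3 and S2P induced 2 (r = 0.591), between S5P induced 1 and S2P induced 2 (r = 0.276), and between S5P induced 2 and S2P induced 1 and 3 (r = 0.248 and 0.266). Whether induced libraries carry the label of another plant line was not tested. Per gene lengths were not used here, so levels are compared between libraries and not between genes. Seedlings are bulk material, in which fewer cells of a type and less occupancy per cell cannot be told apart. The 5 marker genes of green tissue held 0.0166% to 0.0319% of reads in the induced libraries and 0.0141% to 0.074% in the mock libraries, and root, seed and pollen markers held at most 0.0185% in any library.

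Proteasome genes took a larger share of RNAPII reads in every induced library than in any mock library of the same antibody. The 54 genes together held 0.439%, 0.449% and 0.382% of reads in the S2P induced libraries, against 0.333%, 0.281% and 0.310% in the S2P mock libraries. For S5P they held 0.456%, 0.423% and 0.504% in the induced libraries, against 0.307%, 0.320% and 0.300% in the mock libraries. The share was 1.38 times as large in S2P induced as in S2P mock plants by the group means, and 1.49 times as large for S5P. The core particle genes held 0.136%, 0.165% and 0.104% in the S2P induced libraries, the lowest of them close to the highest mock library, against 0.104%, 0.0823% and 0.0993% in the S2P mock libraries. The regulatory particle genes held 0.302%, 0.284% and 0.278% in the S2P induced libraries and 0.229%, 0.198% and 0.211% in the S2P mock libraries. For S5P neither particle's groups overlapped.

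**Figure D1:**
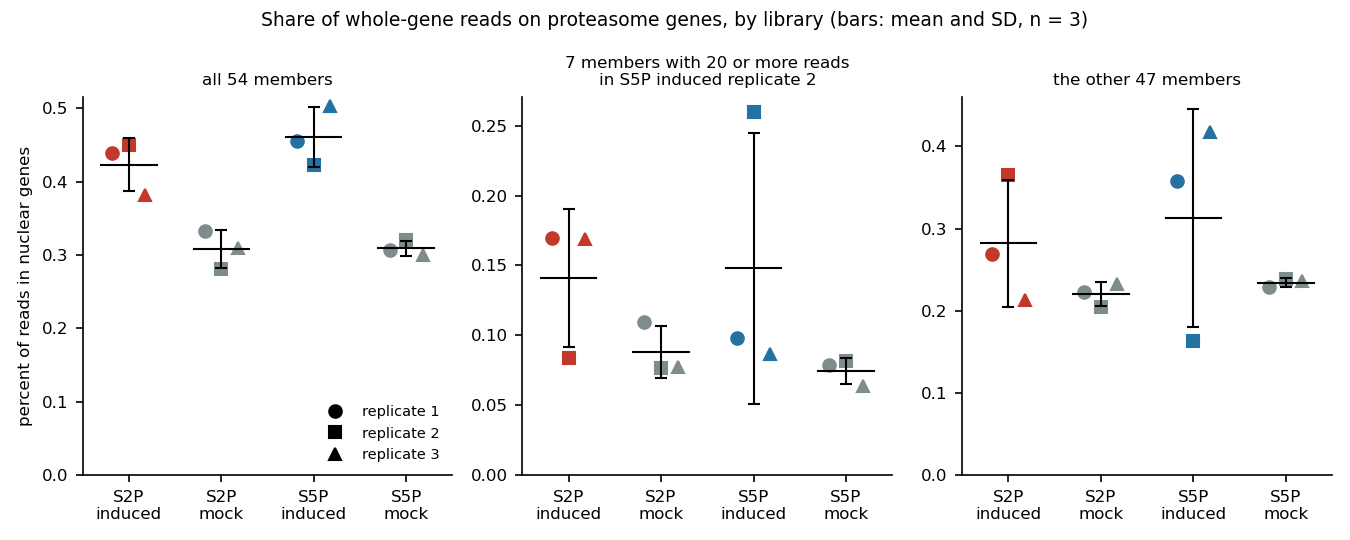
Percent of whole-gene reads in nuclear genes that fell on all 54 proteasome genes (left), on 7 of them (middle) and on the other 47 (right). The 7 were picked for having at least 20 reads in the library labelled S5P induced replicate 2. Points are libraries, with 1 shape per replicate number; lines and bars are the mean and SD of 3 libraries per group, induced left of mock. In the left panel every induced library lies above the mock libraries of its antibody, and in the right panel the groups overlap for both antibodies. The library labelled S5P induced replicate 2 is highest in the middle panel at 0.260% and lowest in the right panel at 0.163%.

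The sum hid a split between libraries. In the library labelled S5P induced replicate 2, 7 genes had at least 20 reads and together held 301 of its 490 proteasome reads: PAE2, PAF1 and AT3G26340 of the core, and AT1G53780, RPN1A, RPN1B and AT1G04810 of the regulatory particle. These genes were singled out after their values were seen, so what follows describes them and tests nothing. They held 0.098%, 0.260% and 0.0865% of reads in the S5P induced libraries, against 0.0784%, 0.0813% and 0.064% in the S5P mock libraries. In the S2P induced libraries they held 0.170%, 0.0837% and 0.169%, against 0.109%, 0.0765% and 0.0775% in the S2P mock libraries. The libraries in which these genes were highest were thus the 3 induced libraries with the largest shares of alignments outside genes. The other 47 genes held 0.358%, 0.163% and 0.417% in the S5P induced libraries, against 0.229%, 0.239% and 0.236% in the S5P mock libraries. For S2P they held 0.269%, 0.366% and 0.213% in the induced libraries, against 0.223%, 0.204% and 0.233% in the mock libraries. Without the 7 genes, the groups overlapped for both antibodies, and the remaining share was lower in the library labelled S5P induced replicate 2 than in any other library. The 7 genes were picked by their reads in that library, so its low remaining share and the S5P overlap follow in part from the choice. The part of the alignments outside genes in this split was not tested.

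Counted gene by gene, the libraries labelled S2P induced replicate 3 and S5P induced replicate 2 stood apart from the other induced libraries. In S5P induced replicates 1, 2 and 3, 47, 21 and 51 of the 54 genes lay above their mean in the S5P mock libraries, and the median ratio to that mean was 1.5, 0.645 and 1.77. In S2P induced replicates 1, 2 and 3, 40, 49 and 23 genes lay above their mean in the S2P mock libraries, with median ratios of 1.23, 1.59 and 0.903. Most proteasome genes were therefore above mock in S2P induced replicates 1 and 2 and in S5P induced replicates 1 and 3, and fewer than in those libraries in the libraries labelled S2P induced replicate 3 and S5P induced replicate 2. The last pair are also the induced libraries with the fewest reads, 210421 and 115868, and those in which TFIIS did not exceed every mock library. The same counts and ratios over all nuclear genes were not taken, so the split is not shown to be particular to proteasome genes. The part of depth and of the induced gene in this split was not tested.

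**Figure D2:**
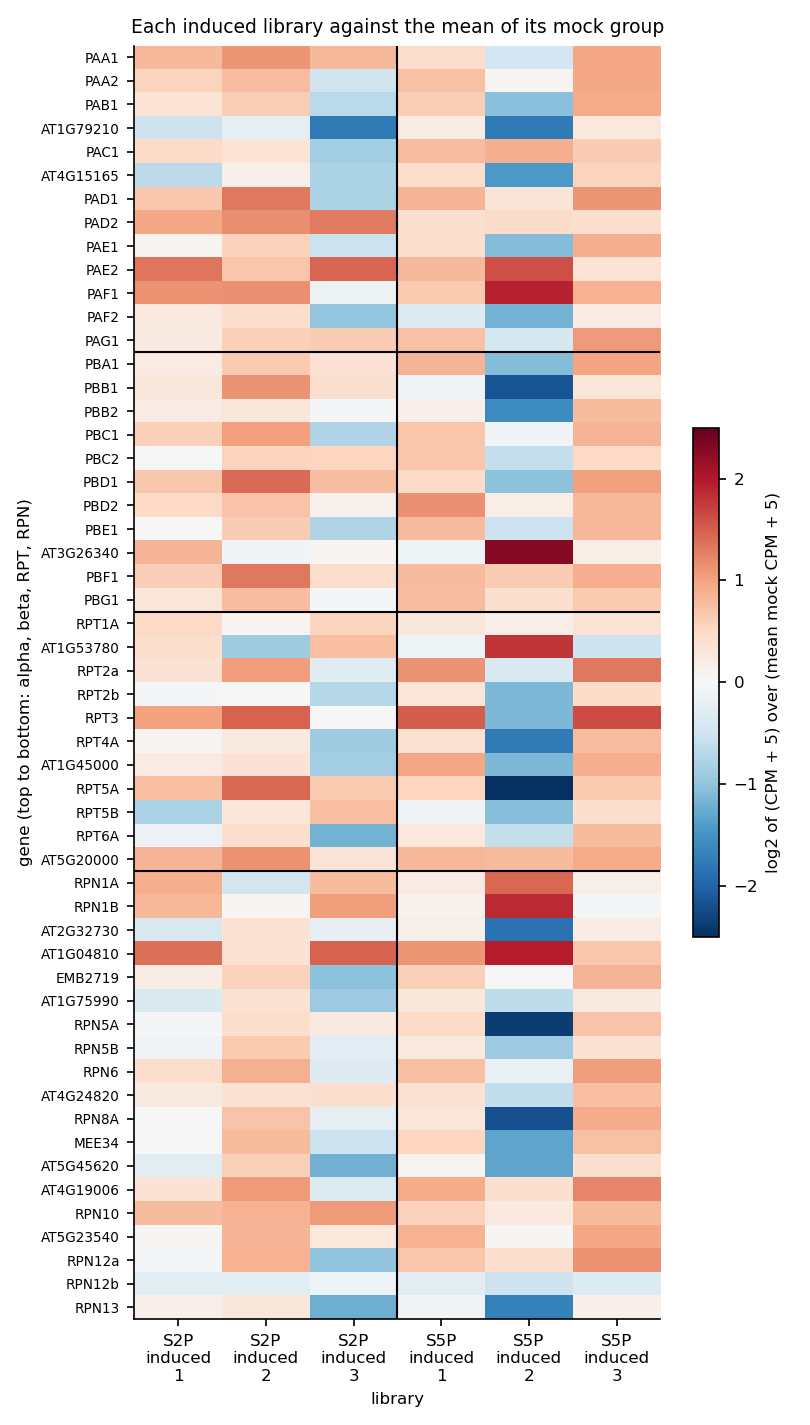
Each row is 1 of the 54 proteasome genes and each column 1 induced library; colour is log2 of (CPM + 5) over (mean CPM of the 3 mock libraries of that antibody + 5). Red is above mock and blue below; S2P induced replicate 2 and S5P induced replicates 1 and 3 are red over most rows, while the library labelled S5P induced replicate 2 is blue over most rows with dark red at genes such as PAF1 and AT3G26340.

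No proteasome gene passed the adjusted threshold of 0.05 in the whole-gene comparison of either antibody. For S2P, 52 of the 54 genes were tested, 51 had a positive log2 fold change and their median was 0.59, against 0.04 over the 18798 genes tested, of which 53.0% were positive. edgeR called 0 of the 52 (0.016% of all tested genes were called). DESeq2 and limma voom also called 0, where they called 44 and 1 of the 18798 genes tested. An unadjusted p under 0.05 was reached by 13 in edgeR, all higher in induced plants (5.19% of all tested genes), by 8 in DESeq2 and by 15 in limma voom. Over all 18798 genes, 837 in DESeq2 and 1715 in limma voom reached it, in either direction. In 11 of the 52, every induced library lay above every mock library (3.41% of all tested genes), and in 0 below (9.31%). For S5P, all 54 genes were tested, 51 had a positive log2 fold change and their median was 0.80, against -0.01 over the 21954 genes tested, of which 49.4% were positive. edgeR, DESeq2 and limma voom called 0 of them, where they called 0 (0.0%), 93 and 0 of the 21954 genes tested. An unadjusted p under 0.05 was reached by 18, 16 and 13, all higher in induced plants. Over all genes tested, 4.32% were higher at that level in edgeR, and 958 genes in DESeq2 and 742 in limma voom. In 13 of the 54, every induced library lay above every mock library (2.95%), and in 1, RPN12b, below (13.7%). PAD2, PBF1 and AT1G04810 were without overlap for both antibodies. The share of all tested genes that were so for both antibodies was not taken, so these genes have no background to be set against. Scaling by total counts in place of TMM (trimmed mean of M values) factors gave medians over all genes of -0.16 for S2P and -0.15 for S5P, and medians of the proteasome genes of 0.37 and 0.62.

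Single libraries decided which genes were called. Without S2P induced replicate 2, PAE2 (1.53, adjusted p = 0.02) and AT1G04810 (1.47, adjusted p = 0.0253) passed edgeR's threshold, 2 of 32 proteasome genes tested where 7.68% of all tested genes passed, and the median of the 32 was 0.28. Without the library labelled S5P induced replicate 2, RPT3 (1.73, adjusted p = 0.0147) and AT4G19006 (1.28, adjusted p = 0.0499) passed, 2 of 54 where 1.16% of all tested genes passed. In that fit the median was 0.81, and 36 of the 54 had an unadjusted p under 0.05, all higher in induced plants, against 8.71% of all tested genes. Without the library labelled S2P induced replicate 3, the median was 0.67 over 54 genes tested, 51 of them positive, and edgeR called 0 (0.16% of all tested genes), with 20 at an unadjusted p under 0.05, all higher in induced plants (5.33%).

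**Figure D3:**
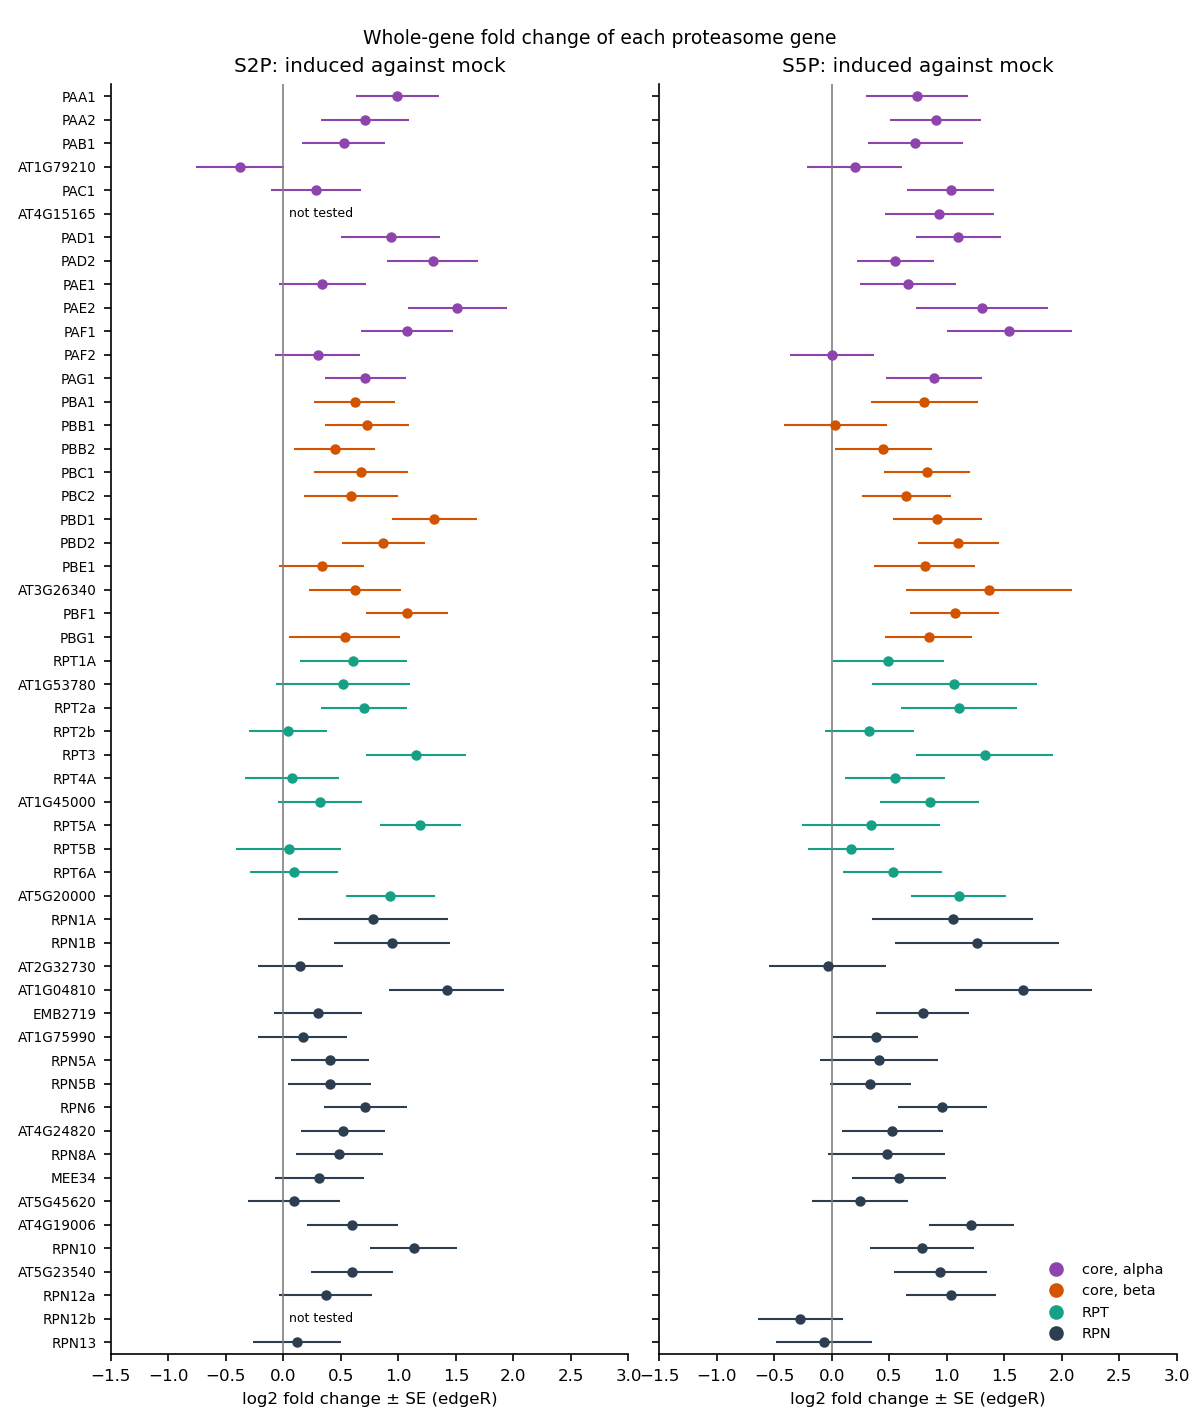
Whole-gene log2 fold change of each proteasome gene, induced against mock, with its standard error from edgeR, for S2P (left) and S5P (right). Genes run from alpha subunits at the top to RPN subunits at the bottom; 51 of 52 tested genes lie right of 0 for S2P and 51 of 54 for S5P, and none passed the adjusted threshold.

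Alpha subunit genes had median log2 fold changes of 0.71 for S2P (12 tested, 11 positive) and 0.89 for S5P (13 tested, all positive). PAE2 had 150.2, 94.2 and 162 CPM in the S2P induced libraries, against 62.5, 57.3 and 48.5 CPM in the S2P mock libraries. Every S2P induced library was above every mock library, highest in replicates 1 and 3, and the log2 fold change was 1.51 ± 0.43, adjusted p = 0.349. In S5P, PAE2 had 116, 207 and 82.7 CPM in the S5P induced libraries, against 87.5, 68.9 and 36.01 CPM in the S5P mock libraries, where the third induced library lay just below the first mock library, and a log2 fold change of 1.31 ± 0.57, adjusted p = 0.654. Its paralog PAE1 had 38.8, 57.1 and 23.8 CPM in the S2P induced libraries, against 50.02, 20.8 and 39.8 CPM in the S2P mock libraries, and the groups overlapped (log2 fold change 0.34 ± 0.38, adjusted p = 0.842). PAD2 had 32.7, 38.04 and 42.8 CPM in the S2P induced libraries, against 18.8, 5.21 and 18.9 CPM in the S2P mock libraries, without overlap and with a log2 fold change of 1.3 ± 0.40, adjusted p = 0.427. In S5P, PAD2 had 32.8, 34.5 and 33.5 CPM in the S5P induced libraries, against 25.5, 19.3 and 26.6 CPM in the S5P mock libraries. All induced libraries were above mock, and the log2 fold change was 0.55 ± 0.33, adjusted p = 0.701. In the second induced library, however, a single read was worth 8.63 CPM, more than its distance from the highest mock library. PAD1 had 77.02, 51.8 and 92.4 CPM in the S5P induced libraries, against 38.2, 44.1 and 39.1 CPM in the S5P mock libraries. These groups did not overlap (log2 fold change 1.1 ± 0.37, adjusted p = 0.596), whereas in S2P PAD1 had 61.2, 98.6 and 19.01 CPM in the S2P induced libraries, against 43.8, 26.04 and 40.2 CPM in the S2P mock libraries, where the third induced library was below all 3 mock libraries (0.93 ± 0.43, adjusted p = 0.651). PAF1 had 83.1, 207 and 96.1 CPM in the S5P induced libraries, against 39.8, 60.6 and 51.7 CPM in the S5P mock libraries, without overlap but with the second induced library more than 2 times any other, and a log2 fold change of 1.55 ± 0.55, adjusted p = 0.608. Its paralog PAF2 had 35.2, 17.3 and 52.9 CPM in the S5P induced libraries, against 39.8, 60.6 and 35.2 CPM in the S5P mock libraries, and here the same library was the lowest of all 6 (0.00 ± 0.37, adjusted p = 1). AT1G79210 had the lowest log2 fold change for S2P, the only negative value among the 52 proteasome genes tested. It had 29.7, 37.2 and 9.51 CPM in the S2P induced libraries, against 50.02, 46.9 and 37.05 CPM in the S2P mock libraries, with the first and the third induced libraries below all mock libraries and the second within their range (-0.37 ± 0.38, adjusted p = 0.827). Its paralog PAB1 had 53.3, 65.7 and 23.8 CPM in the S2P induced libraries, against 43.8, 41.7 and 37.8 CPM in the S2P mock libraries, and the groups overlapped (0.52 ± 0.36, adjusted p = 0.733). AT4G15165, the paralog of PAC1, had too few reads for a test in S2P and was at 0 reads in the library labelled S5P induced replicate 2, where a count of 0 allows up to 25.9 CPM.

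Beta subunit genes had median log2 fold changes of 0.63 for S2P and 0.83 for S5P, and all 11 were positive for both antibodies. PBD1 had the smallest unadjusted p of all proteasome genes for S2P. It had 26.6, 47.5 and 28.5 CPM in the S2P induced libraries, against 12.5, 15.6 and 16.2 CPM in the S2P mock libraries, without overlap and with a log2 fold change of 1.31 ± 0.37, adjusted p = 0.349. In S5P, PBD1 had 33.4, 8.63 and 51.4 CPM in the S5P induced libraries, against 20.7, 27.6 and 19.6 CPM in the S5P mock libraries, where the second induced library, a single read, lay below all mock libraries (0.92 ± 0.39, adjusted p = 0.648). Its paralog PBD2 had 72.8, 34.5 and 57.4 CPM in the S5P induced libraries, against 27.1, 30.3 and 32.9 CPM in the S5P mock libraries, without overlap in S5P (1.1 ± 0.36, adjusted p = 0.58). In S2P, PBD2 had 50.9, 60.5 and 38.02 CPM in the S2P induced libraries, against 31.3, 46.9 and 26.01 CPM in the S2P mock libraries, where only the third induced library lay within the mock range (0.87 ± 0.36, adjusted p = 0.612). PBF1 was without overlap for both antibodies. It had 54.5, 92.5 and 47.5 CPM in the S2P induced libraries, against 37.5, 26.04 and 38.2 CPM in the S2P mock libraries, and a log2 fold change of 1.07 ± 0.36, adjusted p = 0.469. In S5P, PBF1 had 86.7, 77.7 and 94.7 CPM in the S5P induced libraries, against 42.96, 57.9 and 43.05 CPM in the S5P mock libraries, and the log2 fold change was 1.07 ± 0.39, adjusted p = 0.608. PBA1, PBB1, PBB2 and PBE1 encode subunits with peptidase activity. PBA1 had 81.2, 112 and 90.3 CPM in the S2P induced libraries, against 75.02, 62.5 and 70.95 CPM in the S2P mock libraries, without overlap, and its log2 fold changes were 0.62 ± 0.35, adjusted p = 0.688 for S2P and 0.81 ± 0.46, adjusted p = 0.701 for S5P. For PBB1, PBB2 and PBE1 the groups overlapped for both antibodies, with log2 fold changes between 0.33 and 0.73 for S2P and between 0.03 and 0.81 for S5P. AT3G26340, the paralog of PBE1, had 38.8, 224 and 48.4 CPM in the S5P induced libraries, against 33.4, 52.4 and 41.5 CPM in the S5P mock libraries; the groups overlapped, and the second induced library was more than 4 times any other (1.37 ± 0.72, adjusted p = 0.681). In S2P, AT3G26340 had 78.1, 38.9 and 42.8 CPM in the S2P induced libraries, against 43.8, 36.5 and 42.6 CPM in the S2P mock libraries, where the groups overlapped (0.63 ± 0.40, adjusted p = 0.717).

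RPT genes, which encode the ATPases of the regulatory particle, had median log2 fold changes of 0.52 for S2P and 0.55 for S5P, and all 11 were positive for both antibodies. RPT5A had 61.2, 102 and 57.03 CPM in the S2P induced libraries, against 31.3, 31.2 and 40.99 CPM in the S2P mock libraries, without overlap and with a log2 fold change of 1.19 ± 0.35, adjusted p = 0.392. In S5P, RPT5A had 96.4, 0 and 105 CPM in the S5P induced libraries, against 71.6, 52.4 and 72.01 CPM in the S5P mock libraries; the first and the third induced libraries lay above all mock libraries and the second had 0 reads, which allows up to 25.9 CPM (0.34 ± 0.60, adjusted p = 0.902). Its paralog RPT5B had 18.2, 44.1 and 61.8 CPM in the S2P induced libraries, against 25.01, 31.2 and 48.5 CPM in the S2P mock libraries, with induced libraries on both sides of the mock range (0.04 ± 0.45, adjusted p = 0.997). RPT3 has no paralog on the list. It had 239, 34.5 and 262 CPM in the S5P induced libraries, against 95.5, 68.9 and 77.5 CPM in the S5P mock libraries, so that the first and the third induced libraries were more than 2 times any mock library and the second was below all of them (1.33 ± 0.60, adjusted p = 0.656). In S2P, RPT3 had 140.5, 195 and 66.5 CPM in the S2P induced libraries, against 68.8, 52.1 and 80.8 CPM in the S2P mock libraries, with the third induced library inside the mock range (1.15 ± 0.44, adjusted p = 0.563). AT1G53780, by contrast, had 97.04, 371 and 71.5 CPM in the S5P induced libraries, against 98.7, 124 and 90.01 CPM in the S5P mock libraries, so that the second induced library was the highest and the third the lowest of the 6 (1.07 ± 0.72, adjusted p = 0.729). RPT3 and AT1G53780 thus ranked the 3 S5P induced libraries in opposite order. RPT6A and AT5G20000 are adjacent genes, and reads near their shared boundary may have been counted for either. AT5G20000 had 107, 104 and 115 CPM in the S5P induced libraries, against 54.1, 55.1 and 64.2 CPM in the S5P mock libraries, without overlap (1.1 ± 0.42, adjusted p = 0.623), while the S5P groups of RPT6A overlapped (0.53 ± 0.43, adjusted p = 0.769).

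RPN genes had median log2 fold changes of 0.45 for S2P (18 tested, all positive) and 0.59 for S5P (19 tested, 16 positive). AT1G04810 had 263, 127 and 280.4 CPM in the S2P induced libraries, against 81.3, 115 and 96.96 CPM in the S2P mock libraries, without overlap (1.42 ± 0.50, adjusted p = 0.515). In S5P it had 201, 371 and 148 CPM in the S5P induced libraries, against 100.2, 90.96 and 81.4 CPM in the S5P mock libraries, again without overlap and with the largest log2 fold change of all proteasome genes (1.67 ± 0.60, adjusted p = 0.608). Its paralog AT2G32730 had 120.1, 25.9 and 123 CPM in the S5P induced libraries, against 137, 82.7 and 105 CPM in the S5P mock libraries, where the second induced library had 3 reads and the groups overlapped (-0.03 ± 0.51, adjusted p = 0.996). RPN1A, a scaffold subunit, had 295, 699 and 284 CPM in the S5P induced libraries, against 282, 256 and 226 CPM in the S5P mock libraries; the groups did not overlap, though the first and the third induced libraries were close to the highest mock library (1.05 ± 0.70, adjusted p = 0.724). AT4G19006 had the smallest unadjusted p of all proteasome genes for S5P. It had 63.7, 43.1 and 79.7 CPM in the S5P induced libraries, against 25.5, 33.1 and 35.2 CPM in the S5P mock libraries, without overlap (1.22 ± 0.37, adjusted p = 0.539). Its paralog AT5G45620 had 53.4, 17.3 and 68.6 CPM in the S5P induced libraries, against 38.2, 71.7 and 41.5 CPM in the S5P mock libraries, and the groups overlapped (0.25 ± 0.42, adjusted p = 0.896). RPN10, a ubiquitin receptor, had 105, 112 and 128 CPM in the S2P induced libraries, against 43.8, 72.9 and 59.9 CPM in the S2P mock libraries, without overlap (1.13 ± 0.38, adjusted p = 0.477). RPN13, another ubiquitin receptor, was near 0 for both antibodies, with log2 fold changes of 0.12 ± 0.38, adjusted p = 0.961 for S2P and -0.07 ± 0.42, adjusted p = 0.982 for S5P. RPN12b had the lowest log2 fold change for S5P and too few reads for a test in S2P. It had 10.9, 8.63 and 10.4 CPM in the S5P induced libraries, against 15.9, 16.5 and 10.96 CPM in the S5P mock libraries, below mock without overlap but by a small margin at the first induced and the third mock libraries, each value resting on 1 to 18 reads (-0.27 ± 0.37, adjusted p = 0.871). Its paralog RPN12a had 73.4, 60.4 and 101 CPM in the S5P induced libraries, against 39.8, 41.3 and 50.1 CPM in the S5P mock libraries, above mock without overlap (1.04 ± 0.39, adjusted p = 0.623).

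The balance of summed core and regulatory particle reads did not differ between induced and mock libraries beyond their spread, while medians over genes were higher for the core. The median log2 fold change was 0.68 over the 23 core genes tested and 0.49 over the 29 regulatory genes tested for S2P, and 0.84 over 24 core and 0.57 over 30 regulatory genes for S5P. The log2 ratio of summed core reads to summed regulatory reads was -1.15, -0.78 and -1.42 in the S2P induced libraries, against -1.14, -1.27 and -1.09 in the S2P mock libraries. It was -0.93, -1.18 and -0.88 in the S5P induced libraries, against -1.26, -0.82 and -1.06 in the S5P mock libraries. The groups overlapped for both antibodies, and the mean differences of 0.05 and 0.05 were smaller than the spread between libraries of a group, 0.23 and 0.19 (pooled SD). Gene by gene, the median ratio to the mock mean was 1.37, 1.65 and 0.979 over core genes in S2P induced replicates 1, 2 and 3, beside 1.12, 1.37 and 0.844 over regulatory genes. In S5P induced replicates 1, 2 and 3 it was 1.65, 0.702 and 1.88 over core genes, beside 1.34, 0.613 and 1.705 over regulatory genes. The core median was thus higher in each of the 6 induced libraries, which share their mock libraries, and this difference was not tested. In the gene body window the log2 ratio of summed reads was -2.5 in the library labelled S5P induced replicate 2, the lowest of all libraries.

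Within paralog pairs, most splits of reads overlapped between induced and mock libraries. In 17 of 22 pairs the share of the first gene overlapped for S2P, and in 17 of 22 for S5P. Other gene pairs of the genome were not counted, so the pairs without overlap have no background to be set against. PAF1, RPT2a and AT5G45620 were the first genes of the 3 pairs whose groups did not overlap for both antibodies. PAF1 held 70.98%, 68.3% and 72.7% of its pair's reads in the S2P induced libraries, against 58.3%, 50% and 58.5% in the S2P mock libraries. The pair had only 11 reads in the library labelled S2P induced replicate 3 and 12 in each of S2P mock replicates 1 and 2. In S5P it held 70.3%, 92.3% and 64.5% of its pair's reads in the S5P induced libraries, against 50%, 50% and 59.5% in the S5P mock libraries. With reads summed per group, PAF1 held 69.9% of its pair in S2P induced plants (exact 95% interval 65.2% to 74.3%, 402 reads) and 58.1% in S2P mock plants (51.6% to 64.4%, 241 reads). For S5P the sums gave 68.9% (64.2% to 73.3%, 421 reads) in induced plants and 55.1% (48.0% to 62.1%, 205 reads) in mock plants. These intervals cover counting error only. RPT2a, an ATPase gene with a role in meristem maintenance, held 65.5%, 75.2% and 66.7% of its pair's reads in the S2P induced libraries, against 56.2%, 60% and 59.9% in the S2P mock libraries. In S5P it held 70.7%, 71.4% and 71.1% of its pair's reads in the S5P induced libraries, against 63.4%, 46.1% and 57.5% in the S5P mock libraries. The 3 induced libraries lay within 1 percentage point of each other, but the pair had only 7 reads in the library labelled S5P induced replicate 2. In S2P it had 15 reads in induced replicate 3, and 16 and 20 in mock replicates 1 and 2. AT5G45620 held a smaller share in induced plants, with 43.4%, 46.8% and 37.5% of its pair's reads in the S2P induced libraries, against 62.5%, 57.1% and 50.9% in the S2P mock libraries. In S5P it held 45.6%, 28.6% and 46.2% of its pair's reads in the S5P induced libraries, against 60%, 68.4% and 54.1% in the S5P mock libraries. A single read was worth 8.63 CPM in the second of these induced libraries, so its share there rests on few reads.

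In the pair made of AT2G32730 and AT1G04810 and the pair made of RPT5A and RPT5B, summed shares differed while single S2P libraries overlapped. AT2G32730 held 21.2%, 48.96% and 22.4% of its pair's reads in the S2P induced libraries, against 56.7%, 43.6% and 47.2% in the S2P mock libraries, so that induced replicate 2 lay within the mock range. Summed, it held 30.1% in S2P induced and 47.5% in S2P mock plants, a difference of -17.4 percentage points that was -4.07 without S2P induced replicate 1. In S5P it held 37.4%, 6.52% and 45.5% of its pair's reads in the S5P induced libraries, against 57.7%, 47.6% and 56.3% in the S5P mock libraries, without overlap, and the summed difference was -20.6 to -14.5 percentage points with any 1 library left out. RPT5A held 77.1%, 69.8% and 48% of its pair's reads in the S2P induced libraries, against 55.6%, 50% and 45.8% in the S2P mock libraries, and its groups overlapped through the third induced library, although the summed shares were 71.1% in induced and 46.4% in mock plants and differed by 18.7 to 26.6 percentage points with any 1 library left out. In S5P it held 71.3%, 0% and 64.98% of its pair's reads in the S5P induced libraries, against 65.2%, 54.3% and 62.6% in the S5P mock libraries, and the summed shares were 67.9% in induced and 62.1% in mock plants. The pair had only 2 reads in the library labelled S5P induced replicate 2, and 9 and 12 in S2P mock replicates 1 and 2. RPN1A and RPN1B, which have the most reads of all pairs, had similar splits in all groups: RPN1A held 67.9% in S2P induced and 68.1% in S2P mock plants, and 66.2% in S5P induced and 65.6% in S5P mock plants. Reads that align equally well to both genes of a pair are not visible in these counts, so the split holds for reads the authors could place. With the reads of each pair summed before the fit, 32 of 32 positions were positive for S2P (median 0.61; 53.0% of all tested genes) and 31 of 32 for S5P (median 0.81; 49.4%). edgeR called 0 for both (0.016% and 0.0% of all tested genes), and 7 positions for S2P and 8 for S5P had an unadjusted p under 0.05 (5.18% and 4.28% of all tested genes, higher).

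**Figure D4:**
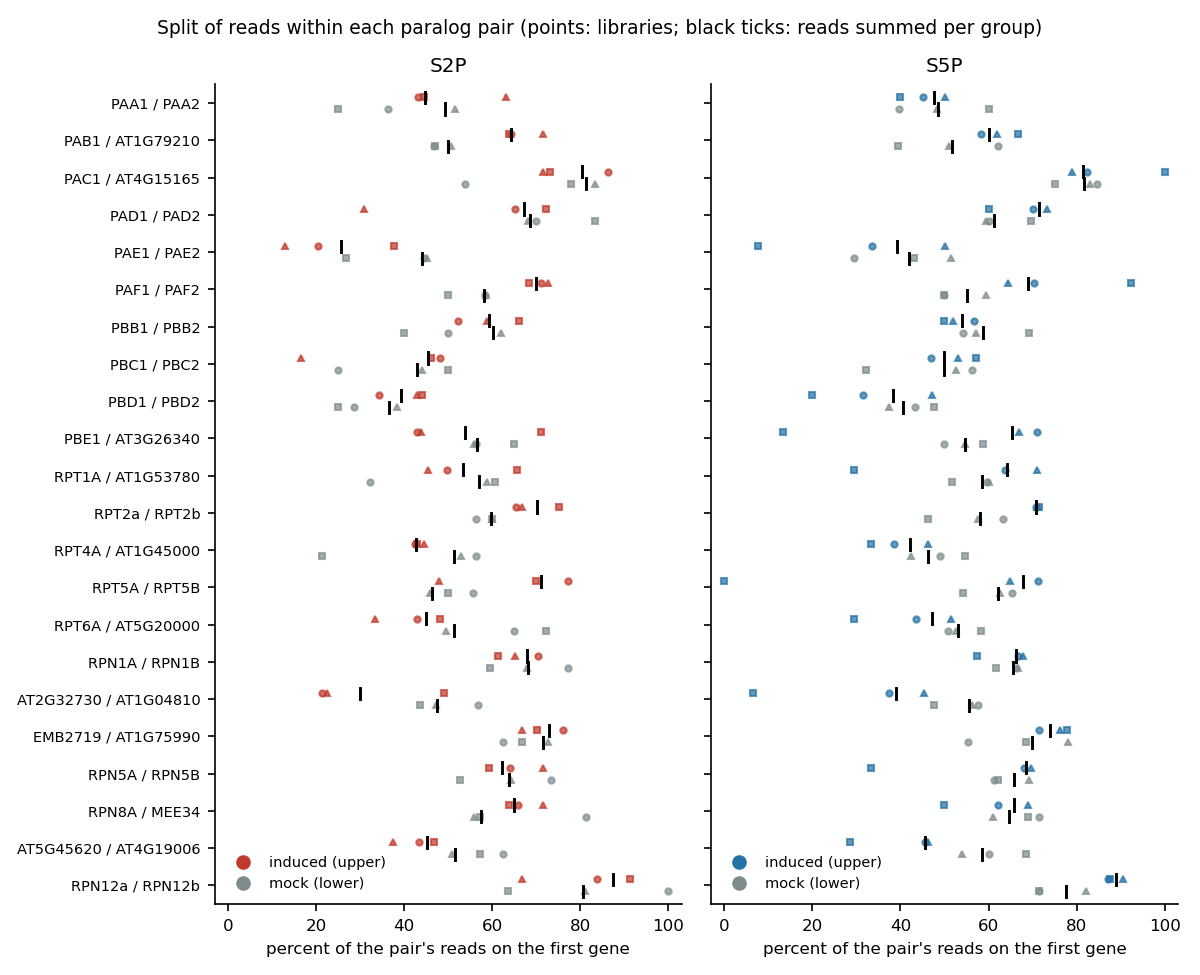
Percent of each paralog pair's whole-gene reads that fell on the first gene of the pair, for S2P (left) and S5P (right). Points are libraries, with 1 shape per replicate number, induced above mock; black ticks are the shares with reads summed per group. PAF1 and RPT2a lie to the right of their mock libraries in every induced library of both antibodies and AT5G45620 to the left.

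Reads near the start of the proteasome genes were compared with reads in the gene body. The windows share reads: their sum exceeded the whole-gene count of the 54 genes by 2.63% to 6.73%, and lay below it for 0 genes in any library. The TSS window held 22.8%, 20.5% and 23.5% of the TSS and gene body reads of the 54 genes in the S2P induced libraries, against 15.9%, 17.8% and 15.3% in the S2P mock libraries, without overlap. Over all nuclear genes the same share was 26%, 23.3% and 27.1% in the S2P induced libraries and 21.1%, 22.9% and 20.4% in the S2P mock libraries, also without overlap. For S5P the proteasome genes had 20.9%, 31.2% and 18.8% in the induced libraries and 18.9%, 19.5% and 15.2% in the mock libraries, which overlapped. Over all nuclear genes the S5P share was 24.9%, 33.7% and 22.95% in the induced libraries and 23.4%, 23.4% and 21.6% in the mock libraries. These groups overlapped too, and the same induced library was the highest, so its high share is not particular to the proteasome genes as a sum. Core particle genes, summed, carried more of their reads in the TSS window than regulatory particle genes in all 12 libraries. Gene lengths and window bounds were not used, so their part in this difference was not tested. The regulatory sum leans on read-rich genes: over the groups, the TSS share was 1.42% to 4.38% for RPN1A and 3.23% to 5.65% for RPN1B. Other regulatory genes were higher, up to 59.3% for RPN12b, which had few reads, in the S2P induced group. The core share reached 65.2% in the library labelled S5P induced replicate 2, against 27.4% and 21.9% in the other S5P induced libraries and 20.4% to 27.9% in the S5P mock libraries.

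The genes that were high in the library labelled S5P induced replicate 2 differed in where their reads lay. PAE2, PAF1 and AT3G26340 had 21, 23 and 24 reads in the TSS window of that library and 3, 1 and 4 in the gene body. RPN1A, RPN1B and AT1G53780 had 0, 1 and 1 in the TSS window and 81, 59 and 43 in the gene body. For AT1G53780 the gene body count equalled the whole-gene count in every library, so its TSS window reads were also counted in the gene body. AT1G04810 had 31 and 30, with 18 of its 43 reads counted in both windows. PAE2 had 212, 51 and 30 TSS window reads in the S2P induced libraries beside 39, 60 and 4 gene body reads, against 6, 8 and 54 beside 4, 4 and 69 in the S2P mock libraries. Its excess in S2P induced replicates 1 and 3 therefore lay in the TSS window. RPT3, one of the genes highest in S5P induced replicates 1 and 3, had 81, 0 and 80 TSS window reads and 338, 4 and 289 gene body reads in the S5P induced libraries, against 17, 3 and 15 and 47, 22 and 89 in the S5P mock libraries.

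**Figure D5:**
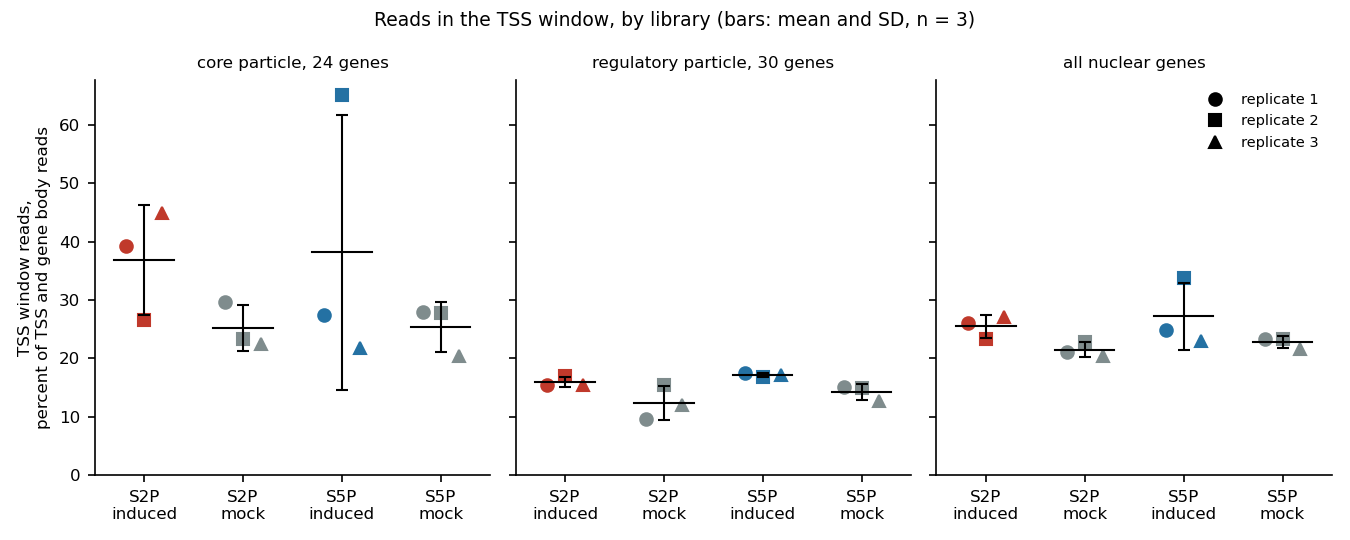
Reads in the TSS window as a percentage of TSS window and gene body reads, for the 24 core particle genes (left), the 30 regulatory particle genes (middle) and all nuclear genes (right). Points are libraries, with 1 shape per replicate number; lines and bars are the mean and SD of 3 libraries per group. The core share of the library labelled S5P induced replicate 2 is 65.2%, above all other libraries.

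Tested window by window, no proteasome gene passed in edgeR, where 0.0% of all tested genes passed in the TSS window for either antibody, and 0.00626% for S2P and 0.0% for S5P in the gene body. In the TSS window 18 genes were tested for S2P (median log2 fold change 0.68, 16 positive, against 51.8% of all tested genes) and 32 for S5P (median 0.49, 27 positive, against 45.7%), with 1 and 0 at an unadjusted p under 0.05, against 2.05% and 1.18% of all tested genes that were higher at that level. In this window the number that passed in DESeq2 or limma voom was 0 for either antibody, also over all genes tested. RPT5A was the gene with the unadjusted p under 0.05 for S2P, with a log2 fold change of 2.20 ± 0.91 (SE; adjusted p = 0.997). In the gene body, 51 genes were tested for S2P (median 0.45, 47 positive, against 48.6% of all tested genes) and 52 for S5P (median 0.74, 49 positive, against 48.5%). An unadjusted p under 0.05 was reached by 9 and 18, all higher in induced plants, against 4.16% and 4.49% of all tested genes. There, too, the number that passed in DESeq2 or limma voom was 0 for either antibody. Over all genes tested in the gene body, DESeq2 called 21 for S2P and 54 for S5P, and limma voom called 1 and 0. Without S2P induced replicate 2, AT1G04810 passed in the gene body (1.60, adjusted p = 0.0258; 7.16% of all tested genes passed) and the median of the genes tested was 0.09. Without the library labelled S5P induced replicate 2, RPT3 passed there (1.67, adjusted p = 0.0231; 0.653% of all tested genes passed).

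Between the antibodies, no proteasome gene passed in a fit without a block. In mock plants the median log2 ratio of S5P to S2P was 0.04 over 50 tested genes, 30 of them positive (52.1% of all tested genes), and edgeR called 0 (0.0% of all tested genes), with RPT5A (0.83) and PAC1 (-0.72) at an unadjusted p under 0.05 (0.86% of all tested genes higher and 1.41% lower). The replicate numbers were taken to pair the mock libraries, whose same-numbered libraries deviated together. With the number as a block, RPT5A alone passed, with 71.6, 52.4 and 72.01 CPM in the S5P mock libraries, against 31.3, 31.2 and 40.99 CPM in the S2P mock libraries (log2 ratio 0.87, adjusted p = 0.0228), while 1.4% of all tested genes passed. In induced plants the median was 0.16 over 54 genes, 38 of them positive (47.7%), and edgeR called 0 (0.0%), with 0 at an unadjusted p under 0.05 (0.163% higher and 0.535% lower). Both comparisons also had 0 calls in DESeq2 and limma voom, over all tested genes as well. The difference between the S5P and the S2P induction response was tested as an interaction. Its median was 0.19 with 41 of 54 positive (49.3% of all tested genes), and edgeR (0.0% of all tested genes), DESeq2 and limma voom called 0, with 0 at an unadjusted p under 0.05 in edgeR (0.261% higher and 0.374% lower). The median was 0.00022 without S5P induced replicate 3, and with the replicate number as a block, which did not pair the induced libraries, it was -0.13 with 20 of 54 positive.

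Genes of the proteasome pathway outside the complex were taken from a list of 33, among them ubiquitin shuttles, deubiquitinases, CDC48 ATPases, polyubiquitins and the NAC transcription factors NAC053 and NAC078. For S2P, 32 were tested, 27 were positive (53.0% of all tested genes) and the median log2 fold change was 0.44; for S5P, 32 were tested, 28 were positive (49.4%) and the median was 0.70. edgeR called 0 for either antibody (0.016% and 0.0% of all tested genes), DESeq2 0 and limma voom 0. Over all tested genes, DESeq2 called 44 for S2P and 93 for S5P, and limma voom 1 and 0. Before adjustment, 2 of the genes for S2P and 6 for S5P had a p under 0.05 in edgeR, all higher in induced plants, against 5.19% and 4.32% of all tested genes. NAC053, reported to bind promoters of proteasome genes, had 102, 129 and 85.5 CPM in the S2P induced libraries, against 75.02, 46.9 and 44.5 CPM in the S2P mock libraries, without overlap (1.18 ± 0.38, adjusted p = 0.446). In S5P it had 146, 17.3 and 173 CPM in the S5P induced libraries, against 30.2, 44.1 and 54.8 CPM in the S5P mock libraries; the first and the third induced libraries were more than 2 times any mock library and the second, with 2 reads, was below all of them (1.6 ± 0.57, adjusted p = 0.608). Without the library labelled S5P induced replicate 2, NAC053 passed the threshold (1.96, adjusted p = 0.00716), as did AT1G67250 (1.4, adjusted p = 0.0397). AtCDC48B, an ATPase that extracts ubiquitinated proteins, had 70.96, 43.1 and 57.4 CPM in the S5P induced libraries, against 36.6, 41.3 and 32.9 CPM in the S5P mock libraries, without overlap (0.87 ± 0.35, adjusted p = 0.642), and in S2P its groups overlapped (1.06 ± 0.40, adjusted p = 0.542). UBA 2, a ubiquitin-activating enzyme, had 281, 134 and 252 CPM in the S2P induced libraries, against 112, 151 and 126 CPM in the S2P mock libraries, again highest in induced replicates 1 and 3 (1.01 ± 0.50, adjusted p = 0.655). DSS1(V), a small subunit of the regulatory particle that is not among the 54 genes, had 29.7, 17.3 and 30.6 CPM in the S5P induced libraries, against 20.7, 8.27 and 10.2 CPM in the S5P mock libraries (1.24 ± 0.38, adjusted p = 0.561), and AT1G67250 had 35.8, 0 and 41.7 CPM in the S5P induced libraries, against 15.9, 16.5 and 14.9 CPM in the S5P mock libraries (1.25 ± 0.43, adjusted p = 0.602). For both genes the groups overlapped through the second induced library.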

How the data were processed

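The authors deposited whole-gene, TSS and gene body read counts per gene for 12 libraries as 36 files of raw counts with no normalization. Per the submitters' processing notes, Trimmomatic and HTSeq were used with genome build TAIR10; the versions, the aligner, the window bounds and the use of strand were not stated in the sources used here. Library sizes and tests used neither the counter's summary lines, which belong to no gene, nor 279 organelle genes. By the summary lines 74.7% to 96.7% of reads were not aligned and 0 alignments were not unique, so reads shared by near-identical paralogs are not visible, and overlapping genes may share reads. No input chromatin, mock immunoprecipitation or wild-type plants were used here.

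Groups and replicate numbers came from the labels; file names of induced replicate 3 carry another number. Counts were tested with edgeR 4.0.16 (quasi-likelihood, R 4.3.3) after filterByExpr with a minimum count of 10 and TMM scaling, with Benjamini-Hochberg adjustment over all tested genes at 0.05. The fit of each antibody used its 6 libraries and the interaction used all 12. SE is derived from the F statistic. Scripts were tested on simulated data. Alternatives were DESeq2 1.42.0, limma voom 3.58.1, other scalings, no filter, leaving out each library, and the replicate number as a block. Same-numbered mock libraries deviated together between the antibodies (r = 0.178, 0.286 and 0.437 over 16388 genes), so numbers were taken to pair them. The largest r joins the deepest mock library of each antibody, and the part of depth in it was not tested. Between S5P induced and S5P mock libraries, r at the same number was 0.002, 0.184 and 0.315, so a pairing in part cannot be set aside. Between S2P induced and S2P mock libraries it was 0.079, -0.141 and -0.248. Induced libraries of the different antibodies did not pair by number. Intervals and the limit of a count of 0 (3 reads) cover counting error only.

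The 54 genes and the lists were chosen with earlier results of these data known, so no pattern here is independent support for them. Names and the order of genes along chromosomes came from a RefSeq table of assembly TAIR10.1, and gene lengths were not used. Particle and paralog of the 15 unnamed genes follow the usual Arabidopsis nomenclature. Genes given in full were, per antibody, the 5 with the smallest p, the one with the lowest log2 fold change and their paralogs, plus the 3 pairs with the largest share difference among pairs with at least 30 reads in every group and the 3 genes with the smallest p in each list; other genes were named after their values were seen. Promoter and protein sequences were not used here.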

Additional observations from a re-analysis of the deposited data

How the results depend on the processing

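The positive medians of the proteasome genes in both whole-gene comparisons stayed positive under every alternative run, and single libraries decided the calls. Median log2 fold changes were 0.28 to 0.67 for S2P and 0.61 to 0.81 for S5P over fits that left out 1 library, with 0 to 2 genes called in each. Total counts gave 0.37 for S2P and 0.62 for S5P, and limma voom 0.61 for S5P. The TSS window gave 0.59 to 0.97 (S2P) and 0.46 to 0.59 (S5P) with 1 library left out and 0 called. There, total counts gave 0.48 for S2P and no filter 1.04 and 0.64. The fit without libraries under 250000 reads, added after the data were seen, gave 0.87 for S2P. For S2P that fit sets induced replicates 1 and 2 against mock replicate 3 alone, so its mock group has no spread. The gene body gave 0.094 to 0.60 (S2P) and 0.53 to 0.79 (S5P) with 0 to 1 called; total counts gave 0.32 and 0.63 and limma voom 0.52 for S5P. For S5P the fit without libraries under 250000 reads is the same as the fit without the library labelled S5P induced replicate 2. It called 2 genes in the whole gene and 1 in the gene body. Between antibodies, leaving out 1 library gave medians of -0.00071 to 0.10 in mock and 0.08 to 0.28 in induced plants and 0.00022 to 0.27 for the interaction, with 0 called; the replicate block gave 1 call, RPT5A, in mock plants and -0.13 for the interaction, and called 0 in the others. The log2 difference of core over regulatory was -0.12 to 0.20 (S2P) and -0.05 to 0.16 (S5P) with 1 library left out, and -0.29 for S5P in the gene body. The log2 difference in the summed share was 0.39 to 0.53 (S2P) and 0.51 to 0.63 (S5P), and without the 7 genes named in the text, also added later, 0.33 and 0.31. Those genes were picked by their reads in the library labelled S5P induced replicate 2, so leaving them out lowers the remaining share of that library. The TSS share differed by 5.28 to 6.78 percentage points (S2P) and 1.98 to 8.19 (S5P) with 1 library left out. With TSS window reads taken over whole-gene reads, an alternative added after the data were seen, it differed by 6.47 and 6.38. Taken as the median over single proteasome genes, the TSS share differed by 6.80 points for S2P. For S5P this median differed by only 1.29 points, against 5.75 from summed reads. Its S5P group means were 20.7% in induced and 19.4% in mock plants, and the groups overlapped. Differences in paralog share with 1 library left out were -26.1 to -4.07 (S2P) and -20.6 to -14.5 (S5P) percentage points for AT2G32730, 18.7 to 26.6 and 2.23 to 8.52 for RPT5A, and 10.5 to 15.7 and 12.1 to 18.9 for PAF1. The causes were not tested. Of 10987 values of 113 single genes (proteasome, listed and TFIIS) under alternatives of the 9 comparisons, 10963 stayed on the same side of the threshold with 24 newly past it, and 0 called values changed sign. The S5P induction fits without the library labelled S5P induced replicate 2 enter these counts 2 times, with their calls. Depth limits the 4 libraries under 250000 reads most: they gave the median proteasome gene 4 to 8 reads.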

Other observations

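The COP9 signalosome is a complex related to the lid of the proteasome that regulates ubiquitin ligases. All 10 of its listed genes were tested and positive for both antibodies, with a median log2 fold change of 0.61 for S2P and 0.80 for S5P, against 0.04 and -0.01 over all tested genes, of which 53.0% and 49.4% were positive. edgeR called 0 (0.016% and 0.0% of all tested genes were called). Before adjustment, 3 genes for S2P and 2 for S5P had a p under 0.05, all higher in induced plants (5.19% and 4.32% of all tested genes). Together they held 0.112%, 0.082% and 0.111% of reads in the S2P induced libraries, against 0.0806%, 0.0734% and 0.0667% in the S2P mock libraries. For S5P they held 0.0834%, 0.135% and 0.0867% in the induced libraries, against 0.0573%, 0.0711% and 0.0566% in the mock libraries, so the groups did not overlap for either antibody.

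CSN8 had 47.9, 78.7 and 47.5 CPM in the S2P induced libraries, against 6.25, 36.5 and 29.6 CPM in the S2P mock libraries, without overlap (1.3 ± 0.41, adjusted p = 0.44). CSN6B had 26.6, 39.8 and 33.3 CPM in the S2P induced libraries, against 18.8, 15.6 and 16.6 CPM in the S2P mock libraries, also without overlap (1.13 ± 0.36, adjusted p = 0.446). CSN6A had 92.1, 72.6 and 119 CPM in the S2P induced libraries, against 43.8, 83.3 and 49.3 CPM in the S2P mock libraries, where the groups overlapped through the second induced library (0.90 ± 0.40, adjusted p = 0.643). In S5P, CSN6A had 91.6, 94.9 and 71.5 CPM in the S5P induced libraries, against 52.5, 52.4 and 41.5 CPM in the S5P mock libraries, without overlap (1.01 ± 0.40, adjusted p = 0.642). CSN3 had 77.6, 34.5 and 88.7 CPM in the S5P induced libraries, against 44.5, 27.6 and 36.01 CPM in the S5P mock libraries, with the second induced library within the mock range (1.13 ± 0.40, adjusted p = 0.608). CSN2 had 80.7, 77.7 and 116 CPM in the S5P induced libraries, against 50.9, 57.9 and 72.01 CPM in the S5P mock libraries, without overlap (0.80 ± 0.42, adjusted p = 0.678).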
